A study of Danio rerio with 18 samples.

Results

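The embryos described here are wild-type zebrafish (Danio rerio) that developed from 12 somites to 24 hours post fertilisation (24 hpf) in the presence of all-trans retinoic acid (atRA). They were chosen by their labelled stage and treatment and make up 6 of the 18 RNA libraries in the series, 3 from 12 somites and 3 from 24 hpf, each from whole embryos. Both groups were raised at 28°C and received 0.1 µM atRA from 80% epiboly, the gastrula stage at which the cell sheet covers most of the yolk, until they were collected. The older embryos had therefore also been exposed for longer, so age and length of exposure cannot be told apart within these 6 libraries. The 6 DMSO-treated control libraries of the same stages, 3 per stage, were used to ask where development under atRA differed from development in the solvent alone. Levels at 80% epiboly are given beside some results, and the atRA embryos of that stage had been exposed from 30% epiboly. They are therefore a differently treated group and not an earlier point of the embryos described here.

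Between these stages a zebrafish embryo completes most of its segmentation, extends its tail, and begins to form working muscle, blood, heart, eye and brain tissue. Retinoic acid, made from vitamin A, binds nuclear receptors that act on transcription directly. In the vertebrate embryo it is known for setting positions along the head-to-tail axis of the hindbrain and trunk, and excess retinoic acid is a classical teratogen.

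The measured features are 58549 transcript IDs. None of them (0) could be paired with a gene name through the tables used here, so transcripts are described in groups and only 4 are named by ID. Counts assigned to transcripts ranged from 77807705 to 86123564 per library at 12 somites and from 38673189 to 50505506 at 24 hpf, without overlap. The labels give no preparation or sequencing batch, and a batch that followed stage could not be told apart from age. Replicates of the older embryos differed more from each other: edgeR's common biological coefficient of variation was 0.0461 at 12 somites and 0.135 at 24 hpf under atRA, beside 0.052 and 0.247 in the controls. The first principal component of log2 CPM (CPM being counts scaled to a common library size) held 88.4% of the variance among the 6 libraries and separated the stages. The second held 5.06% and spread the 24 hpf libraries, with replicate 2 at 60.5, replicate 1 at 13.5 and replicate 3 at -74.3, while the 12 somites libraries lay between -0.764 and 0.827.

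Most transcripts changed with age in the treated embryos. Of 41327 transcripts tested, 29289 were called (70.9%) by edgeR's quasi-likelihood test at a Benjamini-Hochberg adjusted p under 0.05. Of those tested, 15064 were higher at 24 hpf (36.5%) and 14225 were lower (34.4%). In 28771 of the called transcripts the libraries of the 2 stages did not overlap. Among all those tested, 31008 (75%) did not overlap. In whole-embryo RNA, a change in the number of cells that hold a transcript and a change in the amount per cell cannot be told apart. With libraries scaled by their totals the calls numbered 28951, of which 47.8% were higher in place of 51.4%, so which direction held more calls depended on the scaling.

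Rises were larger than falls. The median log2 change was 1.26 for transcripts that rose and -0.711 for those that fell, and both medians stayed at these values when transcripts at the detection floor were set to the bound described below. At least 2-fold changes were called for 13190 transcripts (31.9%), 8987 higher and 4203 lower. At 4-fold or more there were 4668 rises and 1014 falls, and at 8-fold or more 2572 and 402. With floor transcripts at their bound, the 8-fold rises numbered 2495 and the falls 269. The floor was 0.0334 CPM at 12 somites and 0.0652 CPM in the shallower 24 hpf libraries. From a given level a fall therefore has the smaller bound, and these counts do not compare on equal terms. The controls had the same asymmetry, with 2890 rises and 454 falls of 8-fold or more in their own comparison.

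**Figure D1:**
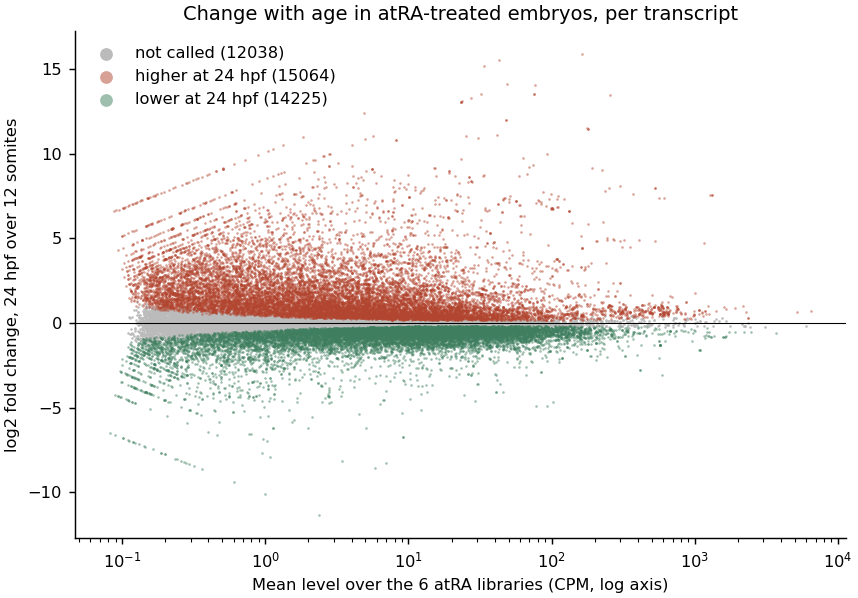
Log2 fold change from 12 somites to 24 hpf in atRA-treated embryos (vertical axis) against the mean level over the 6 libraries in CPM (log axis), 1 point per transcript, coloured by the edgeR call. The 15064 transcripts called higher reach larger fold changes than the 14225 called lower, and the oblique streaks at low levels are transcripts with few or no counts at 1 stage, whose fitted fold is not a measurement of its size.

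The direction of change was related to how abundant a transcript was. Among 10352 transcripts with a mean under 1 CPM, 41.9% rose and 21.2% fell. Among 12053 transcripts between 10 and 100 CPM, 28.6% rose and 48.4% fell. Above 100 CPM, where 1568 transcripts were tested, 37.9% rose and 42.8% fell. The absolute log2 change had a median of 1.03 in the lowest range and 0.55 in the highest. Its standard error for called transcripts had a median of 0.305 under 1 CPM and 0.0916 above 100 CPM, so small changes were easier to call in abundant transcripts. The larger error at low levels also raises a median absolute change. In the lowest range a transcript could pass the count filter through 1 stage alone, which favours large changes. The medians of 1.03 and 0.55 therefore do not by themselves compare the true sizes of change.

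**Figure D2:**
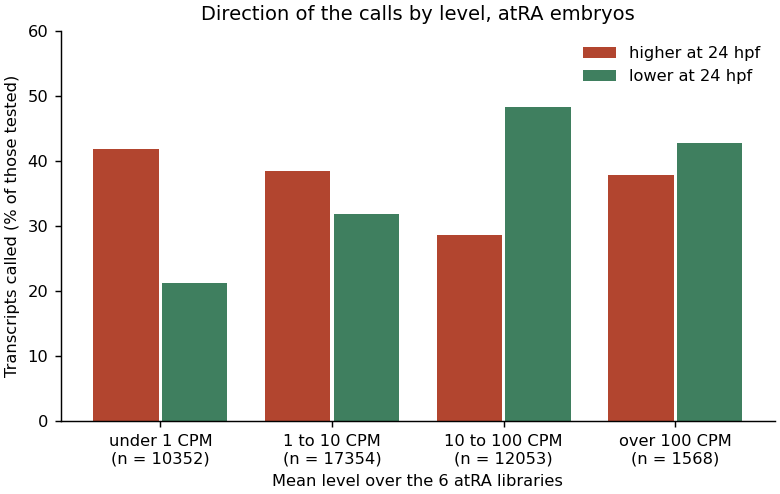
Percentage of the tested transcripts called higher (red) or lower (green) at 24 hpf in atRA-treated embryos, by mean level over the 6 libraries in CPM. Rises outnumber falls below 10 CPM and falls outnumber rises above it, with 28.6% higher and 48.4% lower between 10 and 100 CPM.

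The make-up of the RNA shifted accordingly. The transcripts called higher held 25.2 to 25.8% of the counts of the 12 somites libraries and 46.3 to 49.4% at 24 hpf. Those called lower went from between 50.4 and 51% to between 28.2 and 31.2%. These shares at 12 somites and 24 hpf under atRA describe the selection itself, and the other groups did not enter it. In atRA embryos at 80% epiboly the risers held only 18.4 to 18.7% of counts and the fallers 58.4 to 58.8%. Controls of that stage held 18.3 to 18.7% and 58.3 to 58.9%. At 80% epiboly the shares thus lay further in the direction from which each set came. The control libraries, not used to choose the sets, held 26.5 to 27.1% in the risers at 12 somites and 42.3 to 47.1% at 24 hpf. In the fallers they held 48.6 to 49.1% and then 30.1 to 34.3%.

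**Figure D3:**
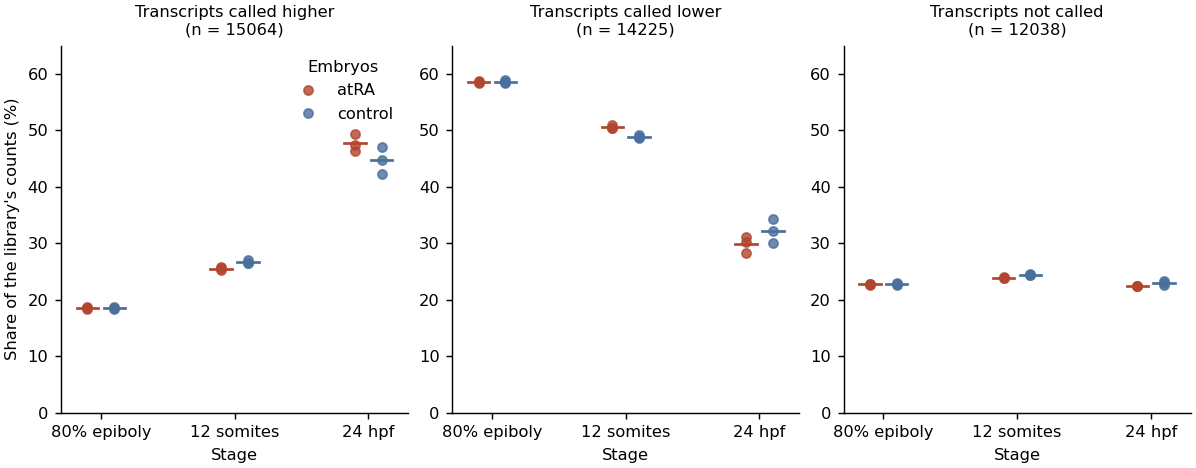
Share of each library's counts (%) held by transcripts called higher (15064), called lower (14225) or not called (12038) in the atRA comparison of 12 somites with 24 hpf, for atRA and control embryos at 3 stages. Each point is 1 library and each bar the mean of 3; in both treatments the risers gain and the fallers lose share from 80% epiboly to 24 hpf.

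The share of the RNA held by abundant transcripts separated the stages in 1 of the 3 ways it was taken. The 1000 most abundant transcripts held 45.6 to 46% of counts at 12 somites and 46.9 to 52.3% at 24 hpf, without overlap. The 100 most abundant held 16.4 to 16.5% and then 16.1 to 17.7%, and the 10 most abundant 3.88 to 3.95% and then 3.94 to 4.27%, with overlap in both cases (exact two-sided permutation p = 1 and 0.2). IDs with at least 1 CPM numbered 29177 to 29246 at 12 somites and 30745 to 31591 at 24 hpf, again without overlap. For the 1000 most abundant and for these IDs the exact two-sided permutation p was 0.1, the smallest that 3 libraries against 3 can give. Of the 100 most abundant transcripts at 12 somites under atRA, 68 were still among the 100 most abundant at 24 hpf, against 76 in the controls. Among the 100 most abundant at 24 hpf under atRA, 56 had risen from 12 somites and 17 had fallen, while among the 100 most abundant at 12 somites 25 rose and 44 fell. Choosing by the level at 1 of the stages favours these directions, and above 100 CPM as a whole 37.9% rose and 42.8% fell. Of the 100 at 24 hpf, 85 were also among the 100 most abundant in controls of that stage.

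ENSDART00000172186.1 had the largest rise among transcripts with a mean of at least 10 counts in both groups. At 12 somites under atRA it stood at 0.0836, 0.118 and 0.162 CPM in replicates 1, 2 and 3, from 7, 11 and 15 counts. At 24 hpf it stood at 352, 337 and 364 CPM. It thus moved from barely detected to rank 441 of all IDs by abundance, with no overlap between the stages. The log2 change was 11.5 (SE 0.151, edgeR adjusted p = 1.09e-11), or 2870-fold. Controls went from 0.0871 ± 0.0327 to 314 ± 74.3 CPM (SD, n = 3), and the change under atRA minus that in controls was -0.301 on the log2 scale (SE 0.462, edgeR adjusted p = 0.719). At 80% epiboly the atRA embryos held 0.067 ± 0.0378 CPM (SD, n = 3), as low as at 12 somites.

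The other 19 of the 20 largest rises chosen in the same way are not named. Over the 20, log2 changes ran from 8.28 to 11.5, with 0.121 to 0.87 CPM at 12 somites and 44.7 to 445 CPM at 24 hpf. All 20 were also called higher in controls, with log2 changes of 7.23 to 11.8, beside 32.3% of all transcripts tested there. For 2 of the 20 the rise was called larger under atRA, and for none of them (0) smaller. Over all transcripts tested, 8.1% had the more positive change under atRA, a share close to that of the 20.

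ENSDART00000110692.2 had the largest fall by the same rule. Its levels under atRA were 16.6, 18.8 and 17.7 CPM at 12 somites and 0.379, 0.257 and 0.645 CPM at 24 hpf, where 18, 11 and 31 counts were left. The stages did not overlap, and the log2 change was -5.33 (SE 0.19, edgeR adjusted p = 3.92e-09), a 40.2-fold decrease. The fall in controls was from 12.8 ± 1.84 to 0.608 ± 0.147 CPM (SD, n = 3), 21-fold. The difference of -0.94 on the log2 scale between the changes (SE 0.338) was not called (edgeR adjusted p = 0.0815). At 80% epiboly under atRA the level was 47.3 ± 6.72 CPM (SD, n = 3), above both later stages.

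The 20 largest falls, this one included, had log2 changes of -5.33 to -4.16. Each of the 20 was called lower in controls too, beside 26.7% of all transcripts tested there. Their log2 changes in controls were -4.39 to -2.48, so within these 20 no control fall was as large as the largest under atRA. This does not hold beyond the 20. Over all 24874 transcripts from which the largest changes were chosen, log2 changes reached -6.32 in controls and -5.33 under atRA. For 5 of the 20 the fall was called larger under atRA and for none (0) smaller. Over all transcripts tested, 7.85% had the more negative change under atRA and 8.1% the more positive. Because the 20 were ranked on the atRA libraries, a larger value in those libraries is partly built into the choice.

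ENSDART00000012644.6 showed the largest gain in absolute level. It was the second most abundant ID at 12 somites under atRA, at 5000, 4980 and 4870 CPM, and the most abundant at 24 hpf, at 7700, 7020 and 9600 CPM. All libraries of the later stage lay above all of the earlier, although replicate 3 stood well above the other two. The log2 change was 0.732 (SE 0.146, edgeR adjusted p = 0.00112), and without the 24 hpf replicate 3 it was 0.59. In controls the level rose from 4640 ± 659 to 9890 ± 1110 CPM (SD, n = 3), a log2 change of 1.09. The difference of -0.357 between the changes (SE 0.22) was not called (edgeR adjusted p = 0.309).

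ENSDART00000028885.8 showed the largest loss in absolute level. The atRA libraries held 4450, 4360 and 4610 CPM at 12 somites and 2790, 2870 and 2960 CPM at 24 hpf, without overlap. The log2 change was -0.615 (SE 0.109, edgeR adjusted p = 0.000532). Controls fell from 4430 ± 107 to 2910 ± 171 CPM (SD, n = 3), and the difference between the changes was -0.0072 on the log2 scale (SE 0.135, edgeR adjusted p = 0.982). At 80% epiboly the level under atRA was 7630 ± 176 CPM (SD, n = 3).

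**Figure D4:**
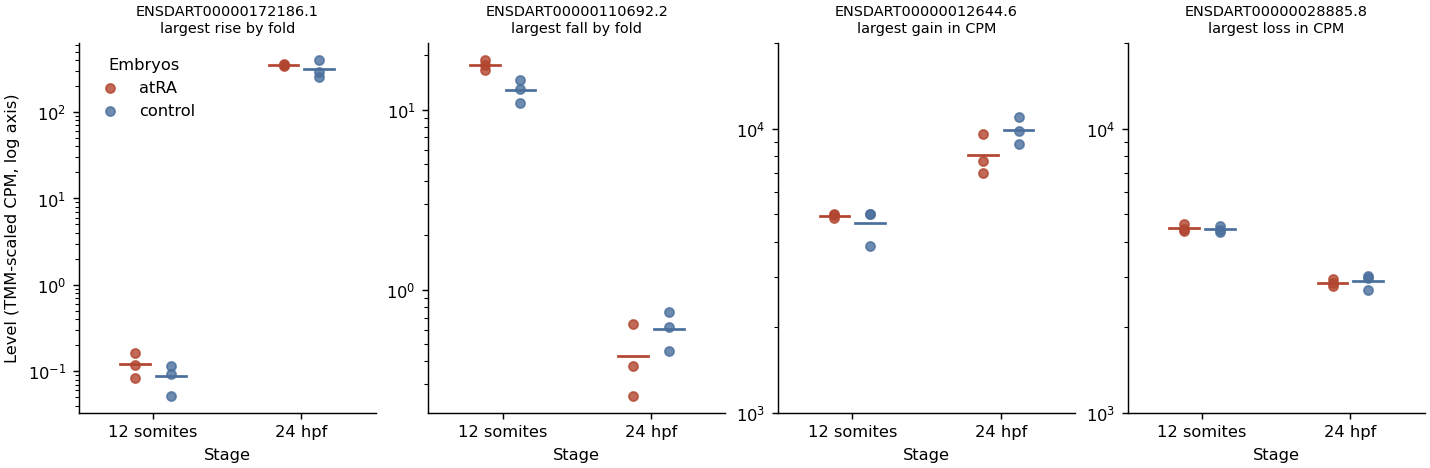
Levels of the 4 named transcripts (TMM-scaled CPM, log axis) at 12 somites and 24 hpf in atRA (red) and control (blue) embryos; each point is 1 library and each bar the mean of 3. The atRA libraries of the 2 stages do not overlap for any of the 4, and the controls moved in the same direction each time.

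Some transcripts had few or no counts at 1 of the stages. In 516 called rises every 12 somites atRA library held at most 3 counts, an average floor of 0.0334 CPM per library. Their levels at 24 hpf had a median of 0.56 CPM and reached 328 CPM, and 24 of them stood at 10 CPM or more. Against that floor the rises were at least 5.2-fold, with a median bound of 16.7-fold, and the highest was at least 9820-fold. In 57 of the 516, all 12 somites atRA libraries held no count. At 80% epiboly under atRA, 321 of the 516 were also at the floor in all libraries, and 195 were above it in at least 1 library. In the controls of that stage 323 were at the floor in all libraries.

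The rises of these transcripts were mostly called in controls too where they could be tested there, the start from the floor less often. Of the 516, 277 were at the same floor of 3 counts in all 12 somites controls, so the rest were above it in at least 1 control library. In controls, 474 could be tested, and 462 of these were called higher (32.3% of all transcripts tested in controls were) and 6 lower. Those at the floor in 12 somites controls pass the count filter there only through 24 hpf. Being tested therefore favours a call of higher, and 32.3% is not an equal comparison. In the test of the difference, 59 of the 516 rose more under atRA and 2 rose less, that is 11.4% more positive beside 8.1% of all transcripts tested. The floor at 12 somites under atRA chose these transcripts, which favours a larger rise in those embryos.

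In 256 called falls every 24 hpf atRA library held at most 3 counts, a floor of 0.0652 CPM per library. Before, at 12 somites, they had a median of 0.3 CPM and reached 13.9 CPM, so most had come from low levels. The falls were at least 2.45-fold, with a median bound of 4.59-fold, and the highest was at least 213-fold. At 80% epiboly under atRA only 43 of the 256 were at the floor. In controls, 188 of the 206 that could be tested were called lower (26.7% of all transcripts tested in controls were), and 122 of the 256 were at the floor in all 24 hpf controls. Those at the floor pass the count filter in controls only through 12 somites, so being tested favours a call of lower. For 31 of the 256 the fall was called larger under atRA and for 3 smaller, that is 12.1% more negative beside 7.85% of all transcripts tested. The floor at 24 hpf under atRA chose these transcripts, which favours a larger fall in those embryos. A fixed floor in counts is easier to meet in the shallower 24 hpf libraries, so 516 and 256 are not directly comparable. After thinning all libraries of both stages to the smallest, they were 753 and 156. The 24 hpf controls held at least 68391282 counts and the 80% epiboly atRA libraries at least 80522765, more than any 24 hpf atRA library. The floor was therefore harder to meet there, which limits how 122 and 43 compare with 256.

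Whether ageing under atRA resembled ageing in controls was asked by testing the same stages in control embryos, which share no library with the atRA comparison. In controls 25395 of 43030 transcripts were called (59%). Of 40964 transcripts tested in both, 19871 were called in the same direction, 10955 higher and 8916 lower. That is 68.5% of the 29021 atRA calls and 82.5% of the 24078 control calls among the transcripts tested in both. A further 8601 were called under atRA alone and 3658 in controls alone, which by itself does not show that the changes differed. Opposite directions were called for 549 transcripts.

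**Figure D5:**
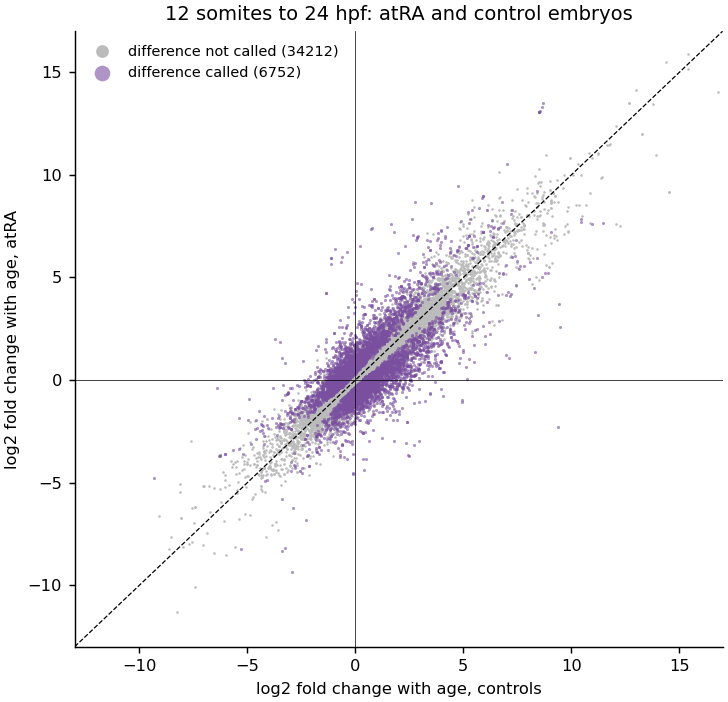
Log2 fold change from 12 somites to 24 hpf under atRA (vertical axis) against that in controls (horizontal axis) for the 40964 transcripts tested in both, 1 point each; purple marks a called difference between the changes. Most points lie along the dashed line of equal change, and the 549 transcripts that moved in opposite directions lie in the upper left and lower right of the plot.

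The difference between the changes was itself tested, as a stage-by-treatment interaction fitted to the 12 atRA and control libraries. It was called for 7025 of 44034 transcripts (16%), 3568 with the more positive change under atRA (8.1%) and 3457 with the more negative (7.85%). With library totals 40.7% were more positive in place of 50.8%. The number rested on 1 control library and on the method: it was 13025 without the 24 hpf control replicate 2, and limma with library quality weights gave 21824.

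The classes below were chosen by this test on the same 12 libraries, so their levels relative to controls describe the choice and support nothing further. Over all 40964 transcripts tested in both treatments, the atRA mean at 12 somites was below that of controls in 51.5%, and the atRA mean at 24 hpf was above it in 47.2%. Ambiguous reads made up 17.9 to 18% of the 24 hpf atRA libraries and 16.9 to 17.1% of the controls of that stage, and depth separated these libraries as well. Reads with no feature made up 3.83 to 4.29% and 5.6 to 6.35%, and reads aligned to several places 7.66 to 8.03% and 9.06 to 9.38%. The part of these read shares in the differences was not tested.

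Among transcripts that rose in both treatments, 1017 rose more under atRA and 954 rose less. Those that rose more had a median log2 change of 2.68 under atRA and 1.45 in controls. They started lower, with a median of 0.975 CPM at 12 somites under atRA and 1.87 CPM in controls, and ended at 8.13 and 6.6 CPM. In 956 of the 1017 the mean level at 12 somites was below that of controls, and in 689 the mean at 24 hpf was above it. Those that rose less started at medians of 2.17 CPM under atRA and 1.33 CPM in controls and ended at 6.75 and 9.41 CPM. In 140 of the 954 the mean at 12 somites was below that of controls, and in 148 the mean at 24 hpf was above it.

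Among transcripts that fell in both, 435 fell more under atRA and 679 fell less. The 435 had a median log2 change of -1.35 under atRA and -0.62 in controls, from medians of 20.2 CPM in treated and 16.5 CPM in control embryos at 12 somites. For the 679 the medians were -0.581 and -1.17. In 542 of the 679 the mean at 12 somites was below that of controls, and in 640 the mean at 24 hpf was above it.

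A change called in only 1 of the treatments together with a called difference was found in 4 groups. Under atRA alone, 826 transcripts rose, with a median log2 change of 0.864 beside -0.0338 in controls, and 897 fell, with -0.736 beside 0.0393. In controls alone, 663 rose, with a median of 0.94 beside -0.000671 under atRA, and 704 fell, with -0.724 beside 0.00476. In 754 of the 826 that rose under atRA alone, the mean at 12 somites was below that of controls. In 765 of the 897 that fell under atRA alone, it was not below it.

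All 549 transcripts with calls in opposite directions also had a called difference, which opposite calls from the same libraries make nearly certain. Of these, 282 fell under atRA and rose in controls, with median log2 changes of -0.549 and 0.633. The other 267 rose under atRA and fell in controls, with medians of 0.529 and -0.686. Most were modest in size within each treatment: 62 of the 549 changed at least 2-fold each way, 43 falling and 19 rising under atRA. The difference between the changes was at least 2-fold for 184 of the 282 and 188 of the 267. In 251 of the 267 that rose under atRA the mean at 12 somites had been below that of controls, and in 213 the mean at 24 hpf was above it.

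The most abundant of the 282, picked after its values were seen, moved from a high level in both treatments to opposite ends. Under atRA it held 886, 1190 and 1120 CPM at 12 somites and 135, 135 and 103 CPM at 24 hpf. In controls it held 917, 986 and 807 CPM at 12 somites and 3480, 6820 and 3500 CPM at 24 hpf. The 12 somites groups overlapped, and at 24 hpf every atRA library lay far below every control. It was the ID of rank 4 by abundance in 24 hpf controls and of rank 1176 in 24 hpf atRA embryos. The log2 change was -3.08 (SE 0.153) under atRA and 2.34 (SE 0.292) in controls, and the difference was -5.43 (SE 0.363, edgeR adjusted p = 3.9e-06). This transcript held 0.493% of the counts of 24 hpf controls, out of 0.526% held there by all 402 transcripts that fell 8-fold or more under atRA.

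The most abundant of the 267, also picked after its values were seen, moved far less. It held 236, 226 and 214 CPM at 12 somites and 278, 252 and 344 CPM at 24 hpf under atRA, without overlap. Controls held 228, 225 and 219 CPM and then 172, 208 and 161 CPM. The log2 difference between the changes was 0.709 (SE 0.177, edgeR adjusted p = 0.018). At 80% epiboly it stood at 315 ± 2.18 CPM in atRA embryos and 354 ± 7.96 CPM in controls (SD, n = 3).

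The largest changes under atRA were nearly always called in the same direction in controls, where they could be tested there. Of the 2572 rises of 8-fold or more, 2512 could be tested in controls and 98.6% of these were called higher there, beside 32.3% of all transcripts tested in controls. Of the 402 falls of 8-fold or more, 362 could be tested and 344 of these (95%) were called lower, beside 26.7%. The rest of the 402 did not pass the filter on counts in controls. A transcript that was low at the same stage in controls passed that filter through the other stage, which favours a call in the same direction. With floor transcripts at their bound, only 269 falls were of 8-fold or more. The 402 included 4 that were called higher in controls. A called difference was found for 23.2% of the 2572 and 20.4% of the 402, beside 16% of all transcripts tested, with the larger rise under atRA for 480 and the smaller for 116 of the former, and the larger fall for 71 and the smaller for 11 of the latter. Since the sets were chosen for large changes under atRA, that side is favoured by the choice.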

How the data were processed

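The authors deposited raw counts of reads per versioned Ensembl transcript ID, 1 file per library, with 58549 IDs and 5 summary lines. STAR and HTSeq, and the builds GRCz10 and danRer10, are named in the submitters' processing notes without versions. The annotation release, strand setting and filters are not given in the sources used here, nor is how reads shared by isoforms, gene copies or overlapping genes were assigned. Of 42160 IDs with at least 10 counts per library on average, 1227 had counts identical to another ID in all 18 libraries, so calls are not independent transcripts. IDs with nearly equal counts also occurred and are not in that number, which therefore understates the repetition. The refit with 1 ID per identical set did not merge them. The summary lines entered neither library sizes nor tests. Reads with no feature made up 3.83 to 4.29% of the 6 atRA libraries, ambiguous reads 17.9 to 18.4% and multiply aligned reads 7.12 to 8.03%. These are shares of the counts and these kinds of reads together. Whether ambiguous reads were also counted for the IDs they matched is not given. If they were, this total holds them more than once. The line for low alignment quality equalled that for multiply aligned reads in every library and was not added again.

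Transcripts were kept by filterByExpr, libraries scaled by TMM, and counts tested with edgeR 4.0.16 (glmQLFit, glmQLFTest) in R 4.3.3, with Benjamini-Hochberg adjustment over all transcripts tested. The fits were 24 hpf against 12 somites over the 6 atRA libraries, the same over the 6 control libraries, and the interaction of stage and treatment over these 12. Standard errors are the absolute log2 change divided by the square root of F. CPM levels share 1 TMM scale over 18 libraries. The self-test recovered known changes in simulated counts, in which few transcripts changed and as many rose as fell. Most transcripts changed in these data, so the self-test does not show how the scaling performs there. Floors of 3 counts per library and the bounds from them cover counting error only.

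Replicates are those of the labels, which do not say whether they came from separate clutches, so p-values measure the spread between these samples, which may be technical. Replicate numbers did not pair the libraries. The named transcripts are the largest rise and fall by fold and the largest gain and loss in CPM among calls with a mean of at least 10 counts in each group, no overlap, and no ID with identical counts; the design's gene lists were not used because 0 IDs matched a gene name. The members, lists and rules were chosen with earlier results of these data known. Alternatives were other scalings, filters, thresholds and tests (limma 3.58.1, DESeq2 1.42.0), thinning, a replicate block, 1 ID per identical set, a joint fit of all 18 libraries, and refits without each library.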

Additional observations from a re-analysis of the deposited data

Results flagged for a closer look

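The change from 12 somites to 24 hpf differed between atRA and control embryos for 7025 transcripts by the test of the interaction itself. None of the 4 named transcripts (0) was among them.

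By the summary lines, ambiguous reads, those matching more than 1 feature, made up 17.9% of the 24 hpf atRA libraries on average. Each of these 3 libraries lay above the 16.9 to 17.1% of the controls of that stage. The other shares lay the opposite way, also without overlap: reads with no feature made up 3.83 to 4.29% with atRA and 5.6 to 6.35% in controls, and reads aligned to several places 7.66 to 8.03% and 9.06 to 9.38%. At 12 somites the atRA libraries had held 18.3%, so the share fell by 0.373 percentage points with age under atRA (p = 0.1 by an exact two-sided permutation test, as low as 3 libraries against 3 allow). In controls the mean share of ambiguous reads went from 18.4% at 12 somites to 17% at 24 hpf. Mean shares with no feature went from 4.05 to 5.86% in controls and from 4.2 to 4.13% under atRA. Those aligned to several places went from 7.25 to 9.18% and from 7.19 to 7.84%. Depth also separated the 24 hpf groups, and its part in these read shares was not tested. After thinning the libraries of both stages and treatments to the smallest 24 hpf library, the interaction was called for 5566 transcripts in place of 7025. Thinning also lowers the counts on which that test rests.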

How the results depend on the processing

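The number of calls in the change with age under atRA, 29289, stayed within 1.5 times under both other scalings, both other filters, the DESeq2 test (28281), limma with quality weights (33609), an adjusted p under 0.01, thinning (26806), 1 ID per identical set and all 18 libraries in 1 fit. The added 2-fold minimum left 13190, 8987 higher and 4203 lower, and 9562 called in the same direction in atRA and controls. For the difference between atRA and control it left 2989, an adjusted p under 0.01 left 3175, and limma with quality weights gave 21824. Transcripts at the floor of 3 counts depended on the filter by construction: with no filter 1470 rose from it and 947 fell to it, with at least 10 counts in every library none did (0 and 0), and with all 18 libraries in 1 fit the numbers were 958 and 741. Thinning left 156 falls to the floor. Leaving out each library in turn gave 26730 to 31559 calls (14025 to 16157 higher, 12679 to 15402 lower), 4829 to 13025 differences, 596 to 735 rises from the floor, 195 to 634 falls to it, and 16951 to 22336 shared calls. The falls to the floor numbered 622, 615 and 634 without 24 hpf atRA replicates 1, 2 and 3. These refits judge the floor in 2 libraries and also test more transcripts (42828, 42724 and 43091), and the rises from the floor were 627, 596 and 677 there. Replicate numbers correlated at 0.016, 0.0029 and 0.014 between stages, each the highest for its libraries but too low to pair them, and the replicate block gave 28636 calls and 5288 differences. Of 71 values of the named transcripts, 69 kept direction and call, and 2 were below the 2-fold minimum.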
